A study of Homo sapiens with 11 samples.

Results

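Ferritin and cellular iron handling were followed in Caki1-SR cells through 8 genes, out of 26485 gene symbols in the count tables. These were the ferritin subunits FTL and FTH1, the ferritin receptor NCOA4, the iron importers TFRC and SLC11A2, the exporter SLC40A1, and the iron sensors ACO1 and IREB2. All 8 had a row in both tables. They were chosen by their roles and from the differences between treated and control cells already known at 24 h and 2 h. Those differences are therefore given as a description, with no p-value. Calls of members named further below rest on the same differences and are not a result.

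Caki1-SR is a sunitinib-resistant subline of Caki-1, an established human clear cell renal cell carcinoma line derived from a skin metastasis, and it is cultured in medium with 1 µM sunitinib, a receptor tyrosine kinase inhibitor. The study states clone 1 of this subline for the 24 h cells. The labels of both times give only the subline, so the clone of the 2 h cells is not given in the sources used here. Treated cells (ODC) received an optimized drug combination: Rapta-C at 2 µM, which is based on ruthenium, erlotinib at 1 µM, which inhibits the EGFR kinase, metformin at 1 µM, which is used against diabetes, and the plant lactone parthenolide at 5 µM. Control cells (CTRL) received none of these 4 drugs, and the study calls them untreated in places and sham-treated in others. There were 3 CTRL and 3 ODC libraries at 24 h, and 2 CTRL and 3 ODC libraries at 2 h, 11 in all. The combination was sequenced as a whole, and no single drug of it was analysed here. Nothing in the labels says whether libraries of a group came from separate cultures, so the spread between them, and any p-value resting on it, may be technical.

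The 24 h libraries held 17785229 to 20882856 counts each, and the 2 h libraries 25782895 to 31118349. The column headers of the tables name different months for the 2 times, without saying which step they date, so time and whatever differed between those months cannot be told apart. Of the renal epithelial markers, PAX8 stood at 437 to 891 CPM (counts per 1e6 counts of the library, scaled by TMM factors for its composition), whereas PAX2 and CA9 were at or near 0 in every library, with at most 0.155 CPM. The sum over the markers listed as renal epithelial ran from 3870 to 4840 CPM in ODC and from 4760 to 5640 CPM in CTRL at 24 h, with an overlap. Most of that sum came from VIM, which is not specific to epithelium, so the sum does not measure epithelial cells alone. Within that list, KRT8 (395 to 500 against 527 to 836 CPM), KRT18 (308 to 399 against 491 to 671 CPM) and VIM (2450 to 2950 against 3140 to 3540 CPM) were each lower in ODC than in CTRL at 24 h without overlap. Summed fibroblast markers ran from 66.6 to 281 CPM over all libraries, most of it COL1A1, and at 24 h from 115 to 169 CPM in ODC and from 66.6 to 142 CPM in CTRL. PDGFRB was at 20.1 to 49.1 CPM in ODC and 6.54 to 21.6 CPM in CTRL at 24 h. The part of these markers in the iron genes' differences was not tested. Summed endothelial, immune and erythroid markers reached at most 2.73 CPM. CTRL replicate 1 at 2 h stood apart in the fibroblast markers COL1A2, with 971 counts against 0 to 11 in the other 10 libraries, and DCN, with 73 counts against 0 to 3. The members' fold changes at 2 h are therefore also given without either control.

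Ferritin is a hollow protein shell that stores iron. It is assembled from heavy chains (FTH1), which oxidise the incoming iron, and light chains (FTL), which help the mineral core to form. Cells take up transferrin-bound iron through the transferrin receptor TFRC and move it out of the endosome through SLC11A2 (DMT1), while SLC40A1 (ferroportin) exports it. The iron regulatory proteins ACO1 (IRP1) and IREB2 (IRP2) bind stem-loops called iron-responsive elements when iron is scarce, which blocks translation of ferritin mRNA from the 5′ end and protects TFRC mRNA from decay at the 3′ end. NCOA4 carries ferritin to the lysosome, where its iron is released. Ferritin genes are also known targets of NRF2, a transcription factor that answers oxidative and electrophilic stress through antioxidant response elements.

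Stem-loops of the iron-responsive kind are shown because such elements link ferritin, ferroportin and the transferrin receptor to the sensors. They were searched in the canonical GENCODE 44 transcripts on the hg38 build, on the transcript strand. The pattern was a C for which no partner was required, 5 stem bases and the loop CAGTGN with a last base other than G. After the loop came 5 bases that pair with the 5 stem bases (G with T allowed). The 6 loop bases are in capitals, and bases are written 5′ to 3′ as DNA on the gene's strand. Each is 17 bases long. There were 7 matches in 4 members.
FTL, 5′ UTR, chr19:48965341-48965357, plus strand: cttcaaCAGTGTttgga
FTH1, 5′ UTR, chr11:61967580-61967596, minus strand: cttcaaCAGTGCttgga
SLC40A1, 5′ UTR, chr2:189580667-189580683, minus strand: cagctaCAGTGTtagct
TFRC, 3′ UTR, chr3:196050985-196051001, minus strand: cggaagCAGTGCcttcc
TFRC, 3′ UTR, chr3:196050581-196050597, minus strand: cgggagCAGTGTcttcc
TFRC, 3′ UTR, chr3:196050516-196050532, minus strand: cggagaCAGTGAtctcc
TFRC, 3′ UTR, chr3:196050469-196050485, minus strand: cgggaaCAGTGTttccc

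The FTL and FTH1 elements begin at base 33 and base 39 of their transcripts, close to the cap. Among 20033 canonical coding transcripts, 0.0549% held such a match in the 5′ UTR, 0.489% in the 3′ UTR and 0.948% anywhere. No match was found in NCOA4, SLC11A2, ACO1 or IREB2, which says only that these letters are not in those transcripts. The pattern misses stem-loops with a bulge or a mismatch in the stem, so the list may be incomplete for any member. A match is a description of letters and not a measured binding site.

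The antioxidant response element was searched in the 5000 bases before each canonical start, on both strands. The loose form TGACNNNGC was found before 83.8% of the 20033 coding genes and before 7 of the 8 members, all but ACO1. The full core TGACTCAGC or TGAGTCAGC was found before 9.9% of coding genes, and among the members before FTL and FTH1 only. TGACTCAGC is itself a case of the loose form, and read on the other strand it is GCTGAGTCA. The matches of the 2 ferritin genes are shown with 15 bases on either side and the core in capitals, on the strand of the gene.
FTL, core at -1367 from the start, chr19:48963927-48963965, plus strand: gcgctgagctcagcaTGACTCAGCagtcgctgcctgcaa
FTH1, core at -4417 from the start, chr11:61972028-61972066, minus strand: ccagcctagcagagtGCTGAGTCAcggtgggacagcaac

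In the FTL window the core lay on the strand of the gene, and in the FTH1 window on the opposite strand. Neither core lay within 250 bases of its start, where 0.624% of coding genes held one. Here too a match describes letters and not a measured binding site, and a role of NRF2 was not tested.

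At 24 h, both ferritin subunits were higher in ODC than in CTRL, FTL 4.13-fold and FTH1 2.89-fold. TFRC stood higher as well, but its libraries were spread widely and the groups all but touched. The autophagy receptor NCOA4, the endosomal transporter SLC11A2 and both iron sensors differed by less than 0.2 on the log2 scale. At 2 h no member differed by more than 0.25 on the log2 scale except the barely detected SLC40A1. Values here are shares of the RNA in a bulk library, in which fewer cells of a kind and less RNA per cell cannot be told apart.

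**Figure D1:**
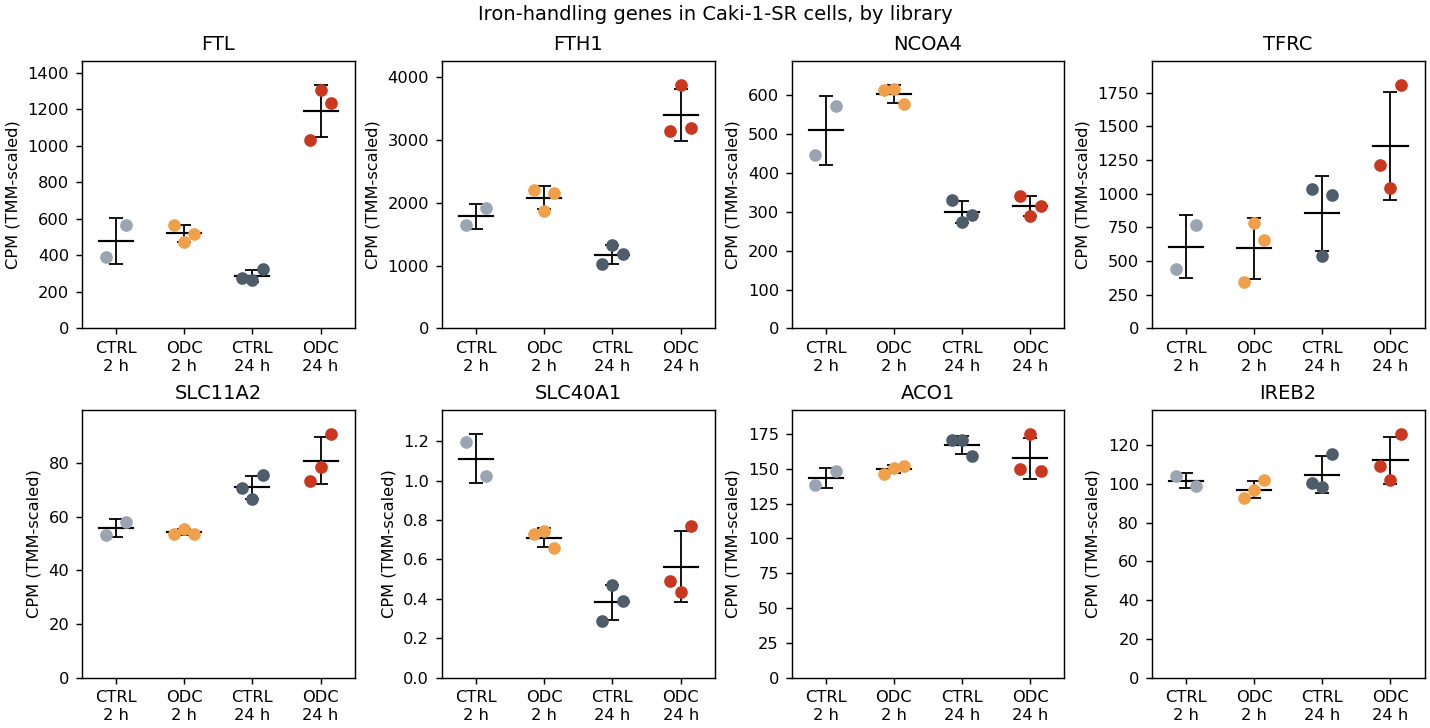
CPM (TMM-scaled, vertical axis from 0) of the 8 iron genes in each of the 11 libraries, by group on the horizontal axis; points are libraries, lines are group means and bars 1 SD. FTL and FTH1 stand apart in the 3 ODC libraries at 24 h, with FTL at 1034 to 1304 CPM against 265 to 327 in CTRL, while the sensors ACO1 and IREB2 stay in a narrow range.

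FTL, on chromosome 19 (48965309 to 48966879, plus strand), measured 274.5, 264.9 and 326.7 CPM in the CTRL libraries at 24 h and 1034, 1304 and 1235 CPM in the ODC libraries. The lowest treated library lay far above the highest control. The means were 289 ± 33.3 and 1191 ± 141 CPM (SD, n = 3 each), a log2 fold change of 2.04 ± 0.13 (standard error). By the size of its log2 fold change FTL ranked 45 among the 12689 genes tested at 24 h. At 2 h it measured 392 and 569.1 CPM in CTRL and 568.4, 473.2 and 519 CPM in ODC, so the groups overlapped. The log2 fold change at 2 h was 0.11 ± 0.16, and it moved to -0.13 without CTRL replicate 1 and to 0.42 without CTRL replicate 2. Its direction at 2 h therefore rested on which of the 2 controls was used.

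FTH1, on chromosome 11 (61959718 to 61967634, minus strand), measured 1021, 1334 and 1179 CPM in CTRL at 24 h and 3141, 3873 and 3191 CPM in ODC. Again no treated library came near a control. The means were 1178 ± 156 and 3402 ± 409 CPM (SD, n = 3 each), a log2 fold change of 1.53 ± 0.14, which ranked 116 of the genes tested. FTH1 was already among the most abundant mRNAs in control cells. By mean CPM at 24 h it ranked 60 in CTRL and 10 in ODC, while FTL ranked 631 and 63. At 2 h FTH1 measured 1642 and 1927 CPM in CTRL and 2210, 1869 and 2163 CPM in ODC, which overlapped, with a log2 fold change of 0.22 ± 0.11. That value was 0.11 without CTRL replicate 1 and 0.36 without CTRL replicate 2.

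Together FTL and FTH1 took 0.129%, 0.163% and 0.153% of all counts in the CTRL libraries at 24 h and 0.415%, 0.499% and 0.445% in the ODC libraries. The ferritin share of the mRNA counts was thus 0.148% ± 0.0175 against 0.453% ± 0.0426 (SD, n = 3 each). At 2 h it was 0.204% and 0.249% in CTRL and 0.281%, 0.233% and 0.266% in ODC. No 2 h library reached the share seen in the treated cells at 24 h.

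The balance of the subunit mRNAs also differed at 24 h. Counts per kilobase of the canonical transcript put FTH1 above FTL 2.69, 3.65 and 2.61 times in CTRL and 2.2, 2.15 and 1.87 times in ODC. By this measure FTH1 mRNA stood above FTL mRNA in every library, and by less in each treated library than in any control. The size of that excess depends on the length used for FTH1, 1203 bases in the canonical transcript and 2004 bases over all exons of the gene. At 2 h the ratio was 3.03 and 2.45 in CTRL and 2.82, 2.86 and 3.02 in ODC, which overlapped. The ratio follows from the same contrasts that chose the genes and was not tested.

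**Figure D2:**
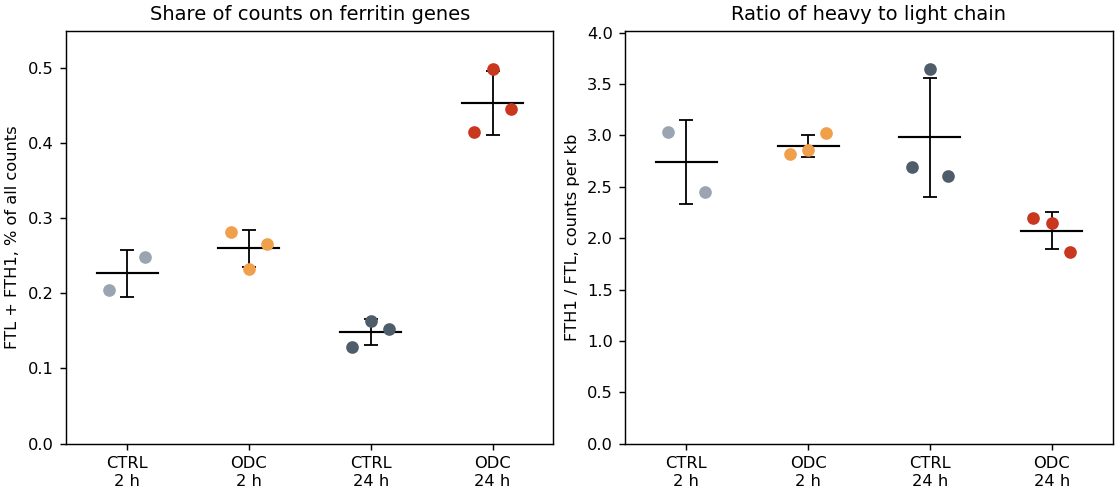
Left, FTL plus FTH1 as a percentage of all counts of a library; right, the ratio of FTH1 to FTL in counts per kilobase; points are libraries by group, lines are means and bars 1 SD. At 24 h the share was 0.415% to 0.499% in ODC and 0.129% to 0.163% in CTRL, and the ratio was 1.87 to 2.2 in ODC and 2.61 to 3.65 in CTRL.

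Processed copies of ferritin genes can take reads from FTL and FTH1 or lose them as ambiguous, so ferritin counts carry that uncertainty. Of such copies, FTH1P3 held 51 counts over all 11 libraries, with 1 to 8 in each, and FTH1P18, FTLP10 and FTHL17 held 0. FTH1 itself held 557030 counts and FTL 161341. The listed copies therefore held few reads beside the genes themselves, which does not show how many reads were lost as ambiguous.

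NCOA4, on chromosome 10 (46005088 to 46030623, minus strand), measured 331.1, 274.4 and 291.3 CPM in CTRL at 24 h and 341, 289 and 313.6 CPM in ODC. The groups overlapped almost fully, with a log2 fold change of 0.07 ± 0.11. The mRNA of the receptor that delivers ferritin for degradation thus differed by less than its spread in the libraries where ferritin mRNA was higher. At 2 h NCOA4 measured 445.8 and 571.3 CPM in CTRL and 613.2, 616.3 and 575.9 CPM in ODC. Here the 3 treated libraries lay above both controls, the closest by less than 5 CPM, and the log2 fold change was 0.24 ± 0.11. Without CTRL replicate 1 it was 0.075 and without CTRL replicate 2 it was 0.45.

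TFRC, on chromosome 3 (196012511 to 196082153, minus strand), was the most variable member. It measured 1035, 534.7 and 992.7 CPM in CTRL at 24 h and 1216, 1040 and 1804 CPM in ODC. The lowest ODC value stood just above the highest CTRL value, so the groups did not overlap, but only narrowly. The log2 fold change was 0.66 ± 0.28, and it was 0.42 without CTRL replicate 2, the lowest control, and 0.40 without ODC replicate 3, the highest treated library. At 2 h TFRC measured 441.5 and 771.2 CPM in CTRL and 341.3, 785.1 and 655.1 CPM in ODC, a log2 fold change of -0.03 ± 0.34. Without CTRL replicate 1 that value was -0.38 and without CTRL replicate 2 it was 0.44, so no direction can be read at 2 h.

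The within-group SD of TFRC on the log2 scale was 0.475 at 24 h and 0.612 at 2 h. It exceeded that of 90.7% of the tested genes at 24 h and of 96% at 2 h. The median gene had an SD of 0.19 at 24 h and 0.153 at 2 h. FTL and FTH1 were close to that median at 24 h, with 0.169 and 0.181.

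SLC11A2, on chromosome 12 (50979401 to 51028566, minus strand), measured 70.7, 66.7 and 75.35 CPM in CTRL at 24 h and 73.43, 78.37 and 90.59 CPM in ODC. These overlapped, with a log2 fold change of 0.19 ± 0.11. At 2 h it was 53.2 and 58 CPM in CTRL and 53.4, 55.46 and 53.63 CPM in ODC, where the treated libraries fell between the controls. Its log2 fold change there was -0.04 ± 0.09, or -0.099 without CTRL replicate 1 and 0.041 without CTRL replicate 2.

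SLC40A1, on chromosome 2 (189560590 to 189583758, minus strand), was barely detected in these cells. Its counts were 6, 9 and 7 in CTRL at 24 h and 10, 8 and 16 in ODC, which overlapped and were too low for the filter, so it was not fitted at 24 h. At 2 h its counts were 31 and 29 in CTRL and 23, 23 and 19 in ODC, or 1.2 and 1.02 CPM against 0.731, 0.745 and 0.656 CPM. All 3 treated libraries lay below both controls, and the log2 fold change was -0.64 ± 0.32, or -0.52 without CTRL replicate 1 and -0.74 without CTRL replicate 2. Values this low carry a large counting error.

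Both iron sensors differed by no more than 0.10 on the log2 scale. ACO1, on chromosome 9 (32384603 to 32454769, plus strand), measured 170.8, 170.5 and 159.4 CPM in CTRL at 24 h and 150, 174.6 and 148.3 CPM in ODC. Its log2 fold change was -0.08 ± 0.10, with overlapping groups. IREB2, on chromosome 15 (78437431 to 78501453, plus strand), measured 100.6, 98.27 and 115.7 CPM in CTRL and 109.5, 101.9 and 125.6 CPM in ODC, a log2 fold change of 0.10 ± 0.11. Both sensors act mainly through their protein state, which mRNA counts do not measure. At 2 h ACO1 was 138.5 and 148.4 CPM in CTRL and 146.5, 150.8 and 152.2 CPM in ODC, and IREB2 was 104.4 and 99.07 CPM in CTRL and 92.78, 96.67 and 101.9 CPM in ODC. The log2 fold changes at 2 h were 0.06 ± 0.08 and -0.07 ± 0.09, and in both genes the groups overlapped. Without CTRL replicate 1 they were 0.014 for ACO1 and -0.029 for IREB2, and without CTRL replicate 2 they were 0.13 and -0.089.

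**Figure D3:**
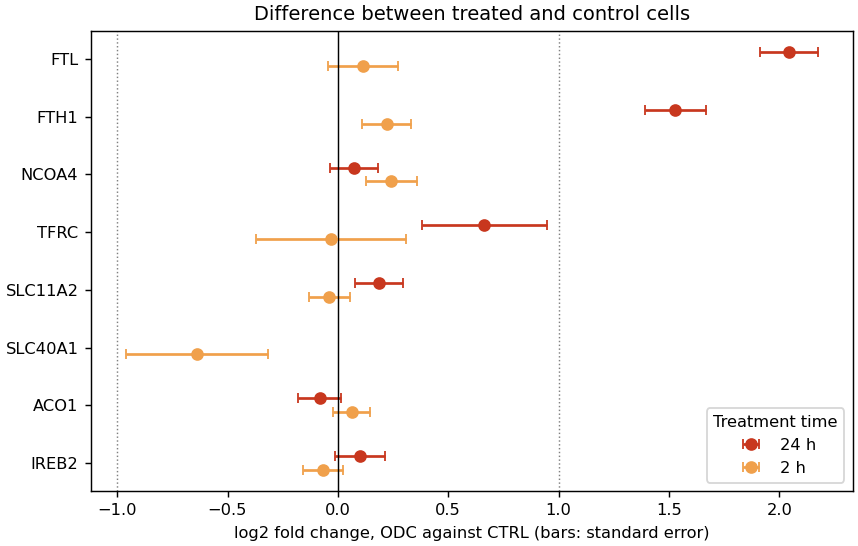
Log2 fold change of ODC against CTRL for each iron gene (horizontal axis), with bars of 1 standard error, at 24 h and at 2 h; dotted lines mark a 2-fold difference and SLC40A1 has no fitted value at 24 h. At 24 h FTL (2.04) and FTH1 (1.53) lie beyond the 2-fold line, and no gene does at 2 h.

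Calls were counted with edgeR's quasi-likelihood test, at an adjusted p under 0.05 (Benjamini-Hochberg) and a fold change of at least 2. At 24 h 21 of the 12689 genes tested were called (0.165%), 24 at any fold change (0.189%). Of the 7 members tested, FTL and FTH1 were among these 21, which the choice of the members already held. FTL was called in all 14 alternatives of filter, scaling, test or libraries, and FTH1 in 12. These alternatives reuse the values that chose the members, so they show only the dependence on processing and are no further support. FTH1 was not called without CTRL replicate 1 or without ODC replicate 1. The count of called genes itself was 2 without CTRL replicate 1 and 53 without ODC replicate 3, and 3, 4 and 12 without ODC replicate 1, CTRL replicate 2 and CTRL replicate 3. Groups did not overlap in 3 of the 7 members, FTL, FTH1 and TFRC, all higher in ODC, where 9.42% of all tested genes were higher and 8.51% lower without overlap. At an unadjusted p under 0.05, 7.2% of all genes were higher and 5.04% lower at 24 h.

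At 2 h none of the 13332 genes tested was called (0%), nor at any fold change (0%), by edgeR's quasi-likelihood test. By an unadjusted p under 0.05, 1.47% of them were higher and 0.87% lower, edgeR's likelihood ratio test called 5 genes and DESeq2 called 1, and the quasi-likelihood test called 40 without CTRL replicate 2. None of the 8 members was called in any of these. Groups did not overlap for NCOA4, which was higher, where 7.89% of all genes were, and for SLC40A1, which was lower, where 7.42% were.

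The effects at 24 h and 2 h were set side by side in a joint fit of all 11 libraries. The log2 fold change was larger at 24 h by 1.92 ± 0.22 for FTL and by 1.29 ± 0.19 for FTH1. For TFRC the difference was 0.68 ± 0.51, for SLC11A2 0.21 ± 0.15, for IREB2 0.15 ± 0.15, for ACO1 -0.16 ± 0.13 and for NCOA4 -0.19 ± 0.17. For SLC40A1 it was 1.2 ± 0.49, at a few counts a library. Among all 13333 genes, 2 passed an adjusted p under 0.05 for this difference (0.015%), FTL and NQO1, and the number ran from 0 to 4 as single libraries were left out. FTL was chosen on these contrasts, so its place there is not a result.

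Levels also differed between the 24 h and 2 h tables, in control cells as well. The TMM factors were estimated within each time, so CPM of the 2 times are not scaled to each other for composition. NCOA4 was higher in every 2 h library (445.8 to 616.3 CPM) than in any 24 h library (274.4 to 341 CPM), and SLC11A2 was lower (53.2 to 58 against 66.7 to 90.59 CPM). FTL and FTH1 were higher in the 2 h controls than in the 24 h controls, with means of 480 against 289 CPM and 1784 against 1178 CPM. The higher ferritin level at 24 h in ODC exceeded both sets of controls, with no 2 h library over 569.1 CPM for FTL or 2210 CPM for FTH1. The renal marker CDH6 also differed between the tables, with 218 to 424 CPM in the 2 h libraries against 6.15 to 66.2 CPM in the others.

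Per kilobase of the canonical transcript, the order of the members' levels in CTRL at 24 h was FTH1, FTL, TFRC, NCOA4, ACO1, SLC11A2, IREB2 and SLC40A1. The mean levels were 979 ± 130 CPM per kilobase for FTH1, 332 ± 38.2 for FTL, 170.4 ± 55.4 for TFRC and 86.4 ± 8.41 for NCOA4 (SD, n = 3). ACO1 followed at 22.4 ± 0.875, SLC11A2 at 17.2 ± 1.05, IREB2 at 16.6 ± 1.49 and SLC40A1 at 0.115 ± 0.0272. SLC11A2 and IREB2 did not differ beyond their spread. In ODC at 24 h the order was the same, with FTH1 at 2828 ± 340, FTL at 1367 ± 161 and TFRC at 270 ± 79.8 CPM per kilobase. At 2 h NCOA4 stood at 146.9 ± 25.7 and TFRC at 121 ± 46.5 CPM per kilobase in CTRL (n = 2), an order within their spread.

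The ratio of uptake to storage mRNA, TFRC over FTH1 per kilobase, was 0.243, 0.0962 and 0.202 in CTRL at 24 h and 0.0929, 0.0645 and 0.136 in ODC. These overlapped, since TFRC stood higher along with ferritin in the treated libraries and varied between controls. At 2 h the ratio was 0.0645 and 0.0961 in CTRL and 0.0371, 0.101 and 0.0727 in ODC.

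Genes whose pattern was most like that of ferritin were sought by the Pearson correlation of log2 CPM after subtracting the CTRL mean of the same time, over 11 libraries and 9094 genes with a mean of at least 10 CPM. The libraries of a time share their controls, and the 3 ODC libraries at 24 h stand apart from the rest, so the correlation is a description only. Among the genes most like FTL were NQO1 (r = 0.991), an NRF2-regulated quinone reductase, FTH1 (0.98), the heparan sulfate sulfotransferase HS6ST1 (0.977) and TTC17 (0.965). Among the genes most like FTH1 were FTL, NQO1 (0.977), NEO1 (0.972) and the transaldolase TALDO1 (0.965). The log2 fold change at 24 h was 1.54 for NQO1, close to that of FTH1, and 0.10 at 2 h. TFRC had other neighbours, URB1 (0.951), USP36 (0.949), FAM208B (0.934), RBM14 (0.933) and PDCD11 (0.927), whose own log2 fold changes at 24 h were only 0.11 to 0.22.

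The wider iron system was described by a list of 75 other genes in the same and neighbouring roles, all with a row in the tables. At 24 h 58 were tested, and 30 had a positive and 28 a negative log2 fold change, with a median of 0.02 beside 0.00 over all genes. None passed an adjusted p under 0.05 at any fold change in the quasi-likelihood test of edgeR, adjusted over all genes by Benjamini-Hochberg. With a fold change of at least 2 also required, the likelihood ratio test called 2, SLC48A1 and HMOX1, and DESeq2 called SLC48A1. List genes with smaller fold changes were not counted for those other tests. At an unadjusted p under 0.05 there were 8 higher and 2 lower, or 17.2% of the tested list beside 12.2% of all genes. The log2 fold change was within 0.25 of 0 for 42 of the 58. Groups did not overlap in 10 higher and 3 lower list genes of the 58, beside 9.42% higher and 8.51% lower over all genes.

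**Figure D4:**
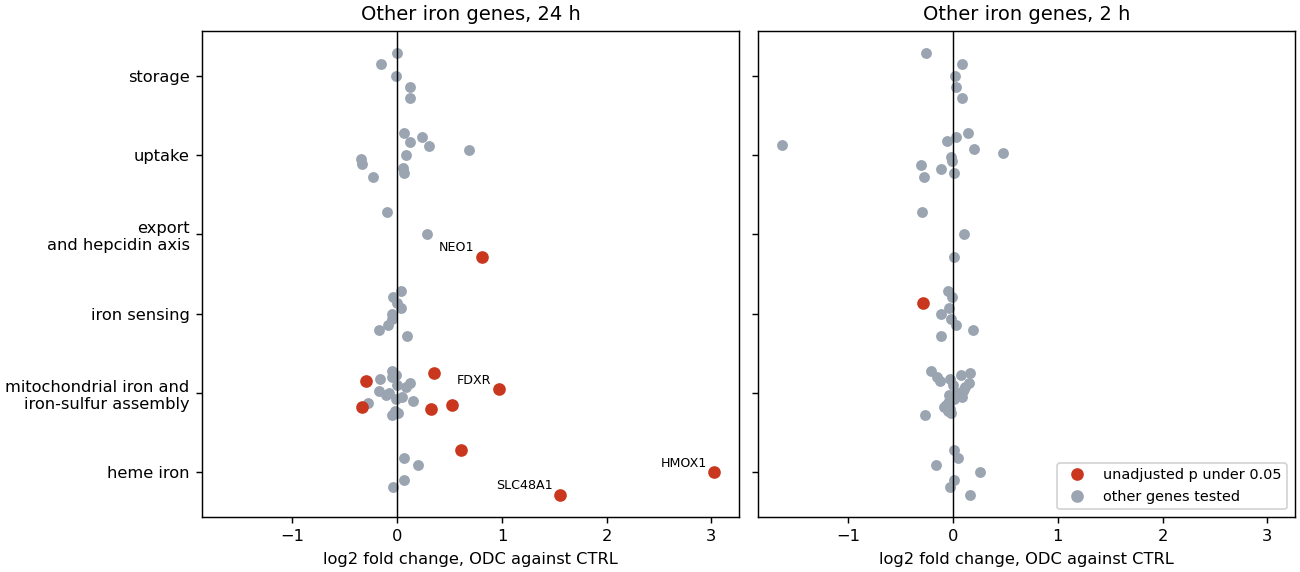
Log2 fold change of ODC against CTRL at 24 h and at 2 h (horizontal axes) for the tested genes of the iron list other than the 8 members, grouped by role; each point is a gene, in red at an unadjusted p under 0.05, and vertical offsets within a role only separate the points. Most lie within 0.25 of 0 (42 of 58 at 24 h and 50 of 59 at 2 h), and the point at -1.63 at 2 h is LCN2, which had few counts.

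By role, none of the 5 other storage genes tested passed even an unadjusted p under 0.05 at 24 h. The iron chaperone PCBP1, which loads ferritin, measured 363 ± 20.9 CPM in CTRL and 326 ± 24.7 in ODC (SD, n = 3 each), a log2 fold change of -0.15 ± 0.10 with an adjusted p of 0.579. The mitochondrial ferritin FTMT had 0 counts in every library. Among the 11 other uptake genes tested, 8 had a positive sign and none passed the unadjusted p. Of the 9 genes listed under sensing, 3 had a positive sign and none passed. Most of this group are factors of cytosolic iron-sulfur assembly, so it is wider than the iron sensors. FBXL5 of this group, which targets IREB2 protein for degradation, was at 61.4 ± 8.84 CPM in CTRL and 59.4 ± 8.93 in ODC (adjusted p = 0.933, quasi-likelihood test). PCBP1 and FBXL5 were singled out for their roles after their values were seen.

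The genes with the smallest p in the list belonged to export, heme and mitochondrial iron. NEO1, a coreceptor of the signal that induces the iron hormone hepcidin, measured 13.79, 15.6 and 13.28 CPM in CTRL at 24 h and 24.74, 25.13 and 24.75 CPM in ODC. The treated libraries were almost equal and lay above all controls. Its log2 fold change was 0.81 ± 0.12, and the adjusted p of 0.0592 did not pass. The hormone itself, HAMP, was at or near 0. The difference of the NEO1 effect between 24 h and 2 h was 0.78 ± 0.15 (adjusted p = 0.31).

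SLC48A1, a heme transporter of the lysosome, measured 9.71, 19.3 and 13.1 CPM in CTRL at 24 h and 50.1, 47.6 and 26.1 CPM in ODC. All treated libraries were higher than all controls, the third by less. Its log2 fold change was 1.56 ± 0.31, with an adjusted p of 0.107 in the quasi-likelihood test. Keeping every gene with at least 1 count gave 0.0426, against 0.0247 in the joint fit, 0.000248 in the likelihood ratio test, 3.42e-05 in DESeq2 and 0.0394 without ODC replicate 3. At 2 h it measured 25.7 and 20.7 CPM in CTRL and 24.2, 21.5 and 32.2 CPM in ODC, which overlapped.

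HMOX1, heme oxygenase, which frees iron from heme and is known as an NRF2 target, measured 21, 16.7 and 40.6 CPM in CTRL at 24 h and 98.3, 49.7 and 489.8 CPM in ODC. All treated libraries were above all controls, with ODC replicate 3 far above the rest. The log2 fold change was 3.03 ± 0.82, with an adjusted p of 0.19 in the quasi-likelihood test and 0.00726 in the likelihood ratio test. At 2 h HMOX1 measured 21.9 and 229.4 CPM in CTRL and 329.1, 17.9 and 103.8 CPM in ODC. Control and treated libraries thus covered the same range, and the log2 fold change was 0.26 ± 1.11. In the 24 h treated libraries the order of HMOX1 was not that of ferritin, since FTL was highest in replicate 2, where HMOX1 was lowest.

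**Figure D5:**
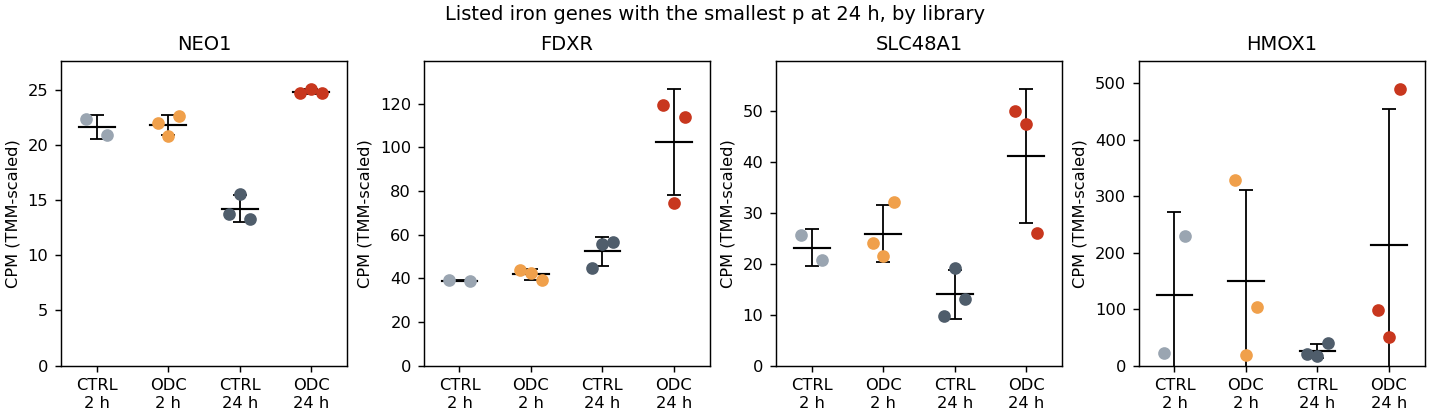
CPM (TMM-scaled, vertical axis from 0) of NEO1, FDXR, SLC48A1 and HMOX1 in each library, by group; points are libraries, lines are means and bars 1 SD, with the part of a bar below 0 not drawn. NEO1 is tight at 24.74 to 25.13 CPM in ODC at 24 h, while HMOX1 runs from 49.7 to 489.8 CPM in the same 3 libraries.

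In the mitochondrion, FDXR, the reductase that feeds electrons to iron-sulfur assembly, measured 44.8, 55.8 and 56.5 CPM in CTRL at 24 h and 119.3, 74.7 and 113.7 CPM in ODC. No treated library overlapped a control. Its log2 fold change was 0.97 ± 0.19 with an adjusted p of 0.102, or 0.0297 without ODC replicate 2. The scaffold ISCU, the cysteine desulfurase NFS1 and the transporter ABCB8 had log2 fold changes of 0.52 ± 0.15, 0.32 ± 0.10 and 0.36 ± 0.12 without overlap of the groups, with adjusted p of 0.236, 0.243 and 0.274. In the other direction, LYRM4, a partner of NFS1, and CISD2 had log2 fold changes of -0.34 ± 0.14 and -0.30 ± 0.13 without overlap, with adjusted p of 0.401 and 0.406. These 2 genes fall outside the rule for named genes and were added after their values were seen. ALAS1, the first enzyme of heme synthesis, was at 49 ± 8.25 CPM in CTRL and 74.5 ± 16.8 in ODC (adjusted p = 0.251). None of these passed in the quasi-likelihood test over all genes. Of the 23 mitochondrial genes tested, 9 had a positive and 14 a negative log2 fold change at 24 h, so the signs in this system were mixed.

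At 2 h 59 of the 75 list genes were tested, 28 with a positive and 31 with a negative log2 fold change and a median of -0.01 beside -0.01 over all genes. None passed an adjusted p under 0.05 in edgeR's quasi-likelihood test. The likelihood ratio test and DESeq2 called none at that threshold with a fold change of at least 2. At an unadjusted p under 0.05 there was 1, FAM96A (now CIAO2A, a factor of cytosolic iron-sulfur assembly), at 70.7 and 61.9 CPM in CTRL and 57.4, 58 and 47.2 CPM in ODC. Its log2 fold change was -0.29 ± 0.12, with an adjusted p of 1. Groups did not overlap in 6 higher and 2 lower list genes of the 59 at 2 h, beside 7.89% higher and 7.42% lower over all genes. Among the next genes by unadjusted p in the quasi-likelihood test were MFI2 (now MELTF), HERC2, LCN2, SLC25A37, ABCB8 and MCOLN1. Their unadjusted p ran from 0.0611 to 0.174, so none was under 0.05, and each had an adjusted p of 1.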

How the data were processed

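The authors prepared stranded mRNA libraries (TruSeqHT), sequenced single-end reads, aligned them to hg38 with STAR (2.7.0f in the submitters' processing notes) and counted them with HTSeq 0.9.1. What the authors deposited is the raw counts for 26485 gene symbols in 2 tables, 1 per time, not normalized or filtered. From these counts, ODC and CTRL were compared separately at 24 h and 2 h with edgeR 4.0.16 in R 4.3.3 (TMM factors, filterByExpr with a minimum count of 10 and total of 15, quasi-likelihood F test, two-sided, Benjamini-Hochberg over 12689 and 13332 genes). A call needed a 2-fold difference or more with an adjusted p under 0.05. A joint fit of 13333 genes gave the difference between the times. Standard errors were derived from the F test, as the absolute log2 fold change divided by the square root of F. DESeq2 1.42.0 was an alternative, with other filters, scalings, the likelihood ratio test and each library left out. A floor of 3 counts was worth 0.0964 to 0.169 CPM, which covers counting error only. Transcripts and lengths came from GENCODE 44, which may differ from the annotation the counts used. HTSeq's strand and multi-mapping settings are not given in the sources used here. The scripts were tested on simulated data.

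The members and the iron list were chosen with earlier results of these data known. All 8 members are named. Of the other iron genes, those with an adjusted p under 0.05, then those with the smallest p until 8 were named at each time, with HMOX1 always, ferritin copies with at least 10 counts, and the 5 genes most like FTL, FTH1 and TFRC. Genes outside this rule are marked. Results for some single genes are left out here.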

Additional observations from a re-analysis of the deposited data

How the results depend on the processing

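Of 201 recomputed member fold changes, 193 stayed within 1 within-group SD of the same gene, a wide margin for a variable gene. Only FTL and FTH1 at 24 h were called, and neither changed sign. The 21 genes called at 24 h became 59 with every gene of at least 1 count, 186 with the likelihood ratio test, 146 with DESeq2 and 95 in the joint fit, and 2 to 53 with single libraries left out. The iron list, with 0 called at 24 h, had 1, 2, 1 and 1 under the same settings and 0 to 1 with single libraries left out. At 2 h, 0 genes became 5 with the likelihood ratio test, 1 with DESeq2 and 0 to 40 with single libraries left out. The 2 genes whose effects differed between times became 7 with every gene of at least 1 count, 37 with the likelihood ratio test, 36 with DESeq2 and 0 to 4 with single libraries left out. The causes were not tested. With single libraries left out, the log2 fold change at 2 h ran from -0.13 to 0.42 for FTL, 0.075 to 0.45 for NCOA4, -0.099 to 0.041 for SLC11A2, -0.74 to -0.52 for SLC40A1 and 0.014 to 0.13 for ACO1. At 24 h it ran from 1.97 to 2.14 for FTL and from 1.42 to 1.63 for FTH1. TFRC at 2 h counted as within 1 SD because its own SD was 0.612, yet its log2 fold change ran from -0.38 to 0.44. The filter on low counts left SLC40A1 without a value at 24 h. No paired analysis was run, because the labels state no pairing between CTRL and ODC libraries. At 24 h the libraries alternate between CTRL and ODC in their numbered order, and a pairing by that order was not tested. The replicate numbers used here follow accession order and only name libraries. Only 2 controls at 2 h, a single cell line and few libraries limit what these values show.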
